A study of Mus musculus with 4 samples.

Results

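Genes of the interferon response and of antigen presentation were examined in cultured mouse podocytes given IL-12. The set held 49 genes, found by exact gene name among the 54532 genes of the deposited count table, and all 49 were present. It was made of 4 interferon receptor chains, 8 regulators, 18 genes of the interferon-γ type (6 guanylate-binding protein (GBP) and immunity-related GTPases (IRG), 10 genes of MHC class I presentation and 2 of MHC class II) and 19 genes of the interferon type I response. After the filter on low counts 47 of them could be tested. RNA-sequencing covered 2 IL-12 libraries, from podocytes that received IL-12 at 400 ng/ml over 6 h, and 2 control libraries, from podocytes treated with saline. The sample labels name the cell line MPC5, a single conditionally immortalized line. Such cells were expanded with 10 U/ml interferon-γ at 33 °C, and then kept at 37 °C without interferon-γ for 10 to 14 days, so both groups had met this cytokine before. Lines of this kind come from mice in which the promoter of an MHC class I gene, itself inducible by interferon-γ, drives a temperature-sensitive T antigen. The labels do not tell whether separate cultures gave the libraries of each group, so the p-values measure the spread between these libraries, which may be technical.

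Interferons act through receptor chains coupled to JAK kinases. Interferon-γ binds IFNGR1 and IFNGR2 and acts on genes with GAS elements, while type I interferons bind IFNAR1 and IFNAR2 and send a complex that holds STAT2 and IRF9 to interferon-stimulated response elements (ISRE). GBP and IRG GTPases and MHC genes are classical interferon-γ targets, and Ifit, Oas and Mx genes are classical type I targets, although the classes overlap. In lymphocytes and natural killer cells IL-12 acts through IL12RB1, IL12RB2 and STAT4 and raises interferon-γ.

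The total counts were 18355379 to 20098012 per library. Levels under 3 counts, which is 0.152 to 0.166 CPM (counts scaled to library sizes that were adjusted by the TMM method), could not be told from 0, and this floor covers counting error only. As for the labelled cell type, the podocyte markers Synpo, Actn4, Kirrel, Cd2ap and Podxl were abundant. Among these, Podxl and Actn4 rose (log2 fold changes 0.33 and 0.17) and Synpo fell (-0.66). Nphs1, the gene of nephrin, had 0 and 1 counts with saline against 0 and 0 with IL-12, and Tcf21 and Ptpro had 0 in every library. Of 18 leukocyte markers, 5 were at 0 in all libraries and only Csf1r and Cd68 passed the filter. The summed level of this list was 27.2 and 29.4 CPM with saline against 16.3 and 20.6 CPM with IL-12, mostly from Csf1r, which fell with a log2 fold change of -0.88 (SE 0.11). The summed tubule list, nearly all Lrp2 reads, was at 659 and 632 CPM against 517 and 558 CPM, and Lrp2 fell (log2 fold change -0.27). The endothelial list was at 10.6 and 10.7 CPM against 8.75 and 8.57 CPM, and the mesangial list at 69.6 and 70.6 CPM against 71.1 and 81.8 CPM. The part of these markers in the results below was not tested. In such bulk libraries fewer cells of a type and less RNA per cell cannot be told apart.

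Interferon ligands were nearly absent from the reads. Ifng had 0 counts in all 4 libraries, which allows at most 0.152 to 0.166 CPM in a library, and so had Ifnb1 and the 4 Ifna genes examined. The chain of genes that links IL-12 to interferon-γ in lymphocytes was also low. Stat4 and Tbx21 were at 0 in every library. Il12rb2 had 0 and 0 counts with saline against 1 and 4 with IL-12. Il12rb1 had 25 and 8 counts with saline against 18 and 26 with IL-12, which overlapped (log2 fold change 0.41, standard error 0.46, edgeR adjusted p = 0.557). Il18rap, an accessory chain of the IL-18 receptor, was the exception, with 53 and 45 counts with saline against 158 and 146 with IL-12 (log2 fold change 1.63, standard error 0.18, edgeR adjusted p = 1.05e-06), but its partner chain Il18r1 had 0, 0, 0 and 3 counts.

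The levels of the 49 genes spanned several orders of magnitude. In FPKM, which are reads per kilobase of gene length, scaled to sequencing depth, B2m, the light chain of MHC class I, was highest with a control mean of 951. The class I heavy chains H2-K1 and H2-D1 followed with 338 and 266, and then Bst2, the gene of the antiviral membrane protein tetherin, with 88.9. In the control group 21 genes had 10 FPKM or more and 11 had less than 1. The median control level was 17.9997 FPKM over the 10 class I genes, 6.06 FPKM over the 6 GTPases and 2.22 FPKM over the 19 type I genes. At the low end stood Mx1, an antiviral dynamin-like GTPase, with 1 count in each control library and 0 in both IL-12 libraries, and Rsad2, the gene of viperin, with 3, 4, 3 and 0 counts. Both failed the filter and were not tested. Of the tested genes Ciita and Mx2 were the lowest.

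**Figure D1:**
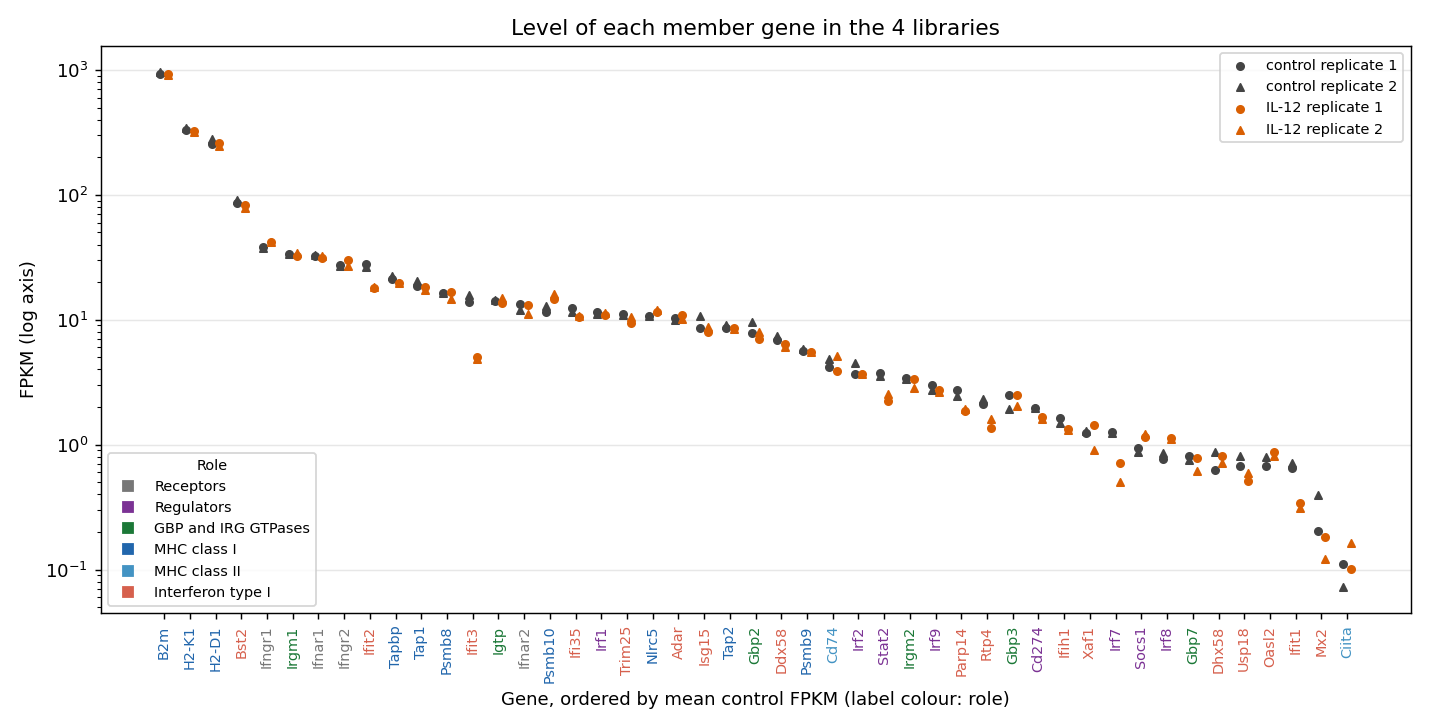
Level of the member genes in FPKM (log axis) in each of the 4 libraries, ordered by the mean of the control libraries, with label colours for the roles. Mx1 and Rsad2, which had 0 counts in at least 1 library, are not drawn. Points of a gene lie close together for most genes, from B2m at 951 FPKM down to Ciita at 0.0915 FPKM, and Ifit3, Ifit1 and Irf7 stand out by the distance between the groups.

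Among the 47 tested genes 12 fell and 3 rose in the IL-12 treatment group, by edgeR's quasi-likelihood test at an adjusted p below 0.05 over 14095 genes. This was 25.5% of them lower and 6.38% higher, against 14.4% and 16.1% of all genes tested (30.5% in either direction). With the further requirement of a 2-fold change, 3 of the 47 were called, all lower (Ifit3, Ifit1 and Irf7), against 0.752% of all genes tested in that direction, 0.858% in the other and 1.61% in either. In 26 of the 49 genes, Mx1 and Rsad2 included, both IL-12 libraries lay below both control libraries, and in 6 both lay above, where 31.2% and 31.7% of all genes tested did so. The median log2 fold change was -0.09 over the 47 genes and -0.0022 over all genes tested. With scaling by total counts 15 fell and 2 rose, while over all genes tested the calls shifted from 2030 lower and 2267 higher to 2590 and 1765. The DESeq2 Wald test called 5 lower and 0 higher of the 47, against 1204 and 1481 of all 14095 genes. It gave no adjusted p to 1913 of the 14095, and Ciita, Ifit1 and Mx2 were among these. Without a filter edgeR called 6 and 1, against 1456 and 1700 of all 24525 genes then tested. With single libraries left out, which leaves 1 library in a group, the lower calls rose in number without control replicate 1 and became fewer in the other fits. The higher calls became fewer. Over all genes tested fewer were called in each of these fits as well. Without IL-12 replicate 2 only 1 gene, Ifit3, passed 2-fold. Stat2, Irf7, Ifit2 and Ifit3 were called in all 14 alternative settings.

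**Figure D2:**
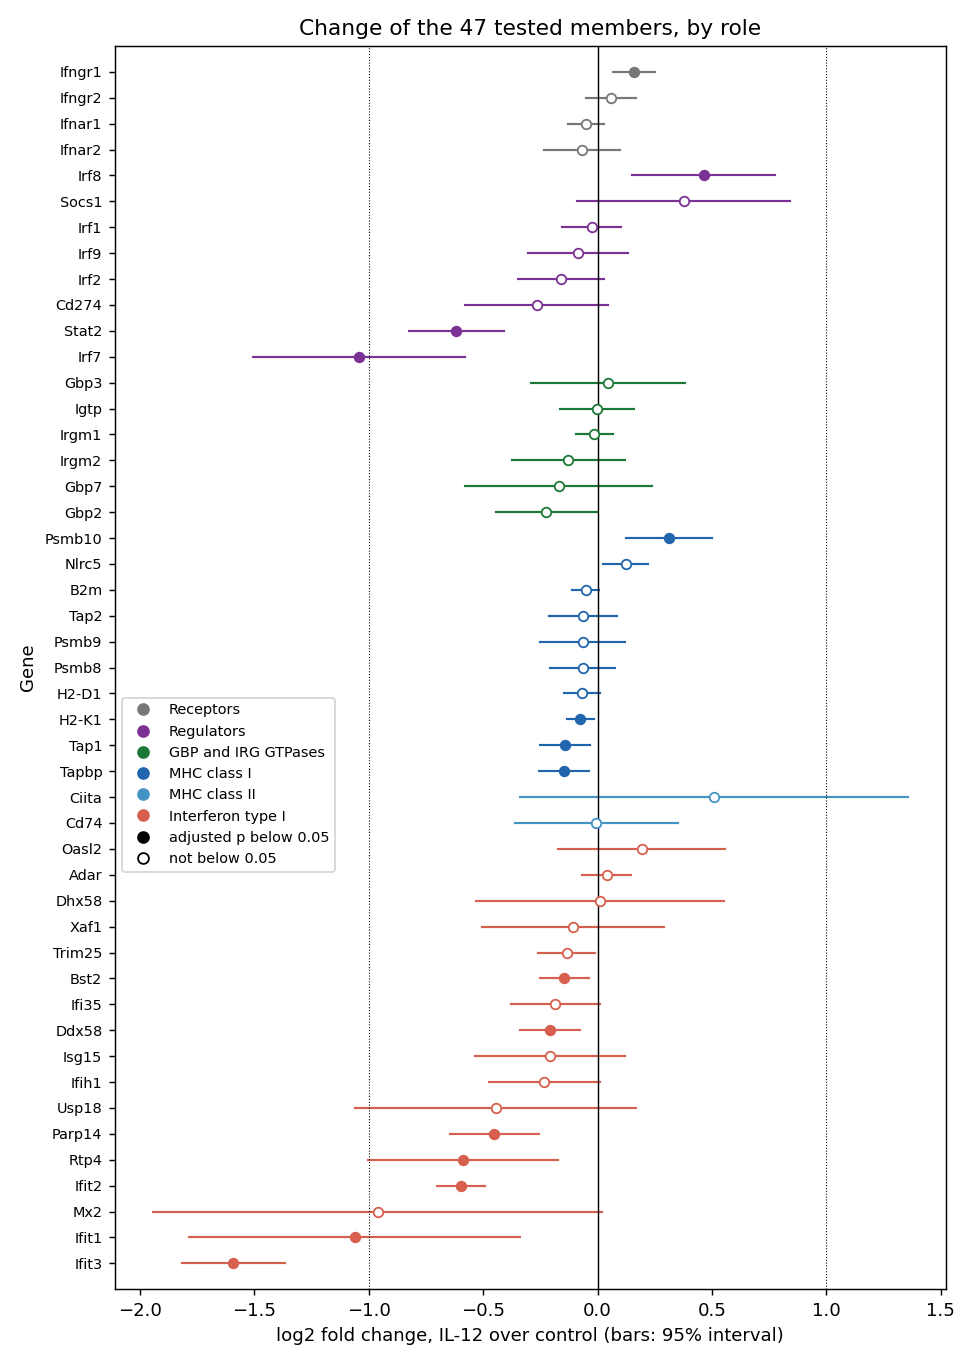
Log2 fold change of the IL-12 over the control group for the 47 tested genes, grouped by role, with 95% intervals from edgeR's quasi-likelihood fit. Filled points have an adjusted p below 0.05 and dotted lines mark 2-fold. The type I genes reach -1.59 (Ifit3), while the GBP and IRG GTPases and the class I genes lie between -0.22 and 0.31.

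The promoters of the genes were read for the elements through which interferons act. RefSeq promoter sequences (GRCm38.p6), from 250 bases before to 50 after a start site, were found for 39 of the 49 genes, as 47 promoters. The ISRE core was searched as GAAA, any 2 bases and GAAA again, and the GAS element as TTC, any 3 bases and GAA, on both strands, and matches may overlap. The ISRE core was present in 36.17% of the promoters of these genes and in 3.44% of all 32851 promoters, and the GAS element in 27.66% and 8.30%. By gene, the ISRE core was matched in 6 of 6 GBP and IRG GTPases, 1 of 8 class I genes, 7 of 13 type I genes, 3 of 8 regulators and 0 of 4 receptors. It was matched in 5 of the 10 genes with a lower call that had a promoter sequence and in 11 of the 25 without a call. A match is a description of the sequence and not a site of binding.

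The called genes with a match before the start site are shown 5′ to 3′ along the gene, with matches in capitals, to set the sequence beside the change. Read from the other strand the ISRE core is TTTC, any 2 bases and TTTC. Ifit3 and Ifit1 each held a pair of ISRE cores, at chr19:34583335-34583454 and chr19:34640740-34640859 on the plus strand. Ifit2, at chr19:34550444-34550563 on the plus strand, held a GAS match, and no ISRE core was matched in its promoter. Bst2, at chr8:71537538-71537657 on the minus strand, held overlapping GAS and ISRE matches. Stat2, at chr10:128270248-128270367 on the plus strand, held an ISRE core, and Irf8, at chr8:120736141-120736260 on the plus strand, a pair of GAS matches.
Ifit3: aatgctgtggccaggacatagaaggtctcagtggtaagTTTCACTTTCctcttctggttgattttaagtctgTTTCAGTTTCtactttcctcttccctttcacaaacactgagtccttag
Ifit1: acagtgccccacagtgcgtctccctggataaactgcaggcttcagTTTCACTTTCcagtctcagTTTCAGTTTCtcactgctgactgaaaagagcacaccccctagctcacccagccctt
Ifit2: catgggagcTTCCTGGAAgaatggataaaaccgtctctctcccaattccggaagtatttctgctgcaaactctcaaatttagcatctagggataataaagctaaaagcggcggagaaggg
Bst2: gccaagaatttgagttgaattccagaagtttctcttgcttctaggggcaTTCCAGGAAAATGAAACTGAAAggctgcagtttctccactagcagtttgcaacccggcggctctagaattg
Stat2: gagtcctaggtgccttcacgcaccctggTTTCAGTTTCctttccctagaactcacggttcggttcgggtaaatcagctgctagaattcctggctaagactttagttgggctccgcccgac
Irf8: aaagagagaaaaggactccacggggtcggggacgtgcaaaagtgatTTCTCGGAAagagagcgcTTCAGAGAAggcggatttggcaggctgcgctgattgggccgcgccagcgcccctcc

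For contrast, chosen after their values were seen, Isg15 (chr4:156200826-156200945, minus strand), Igtp (chr11:58199436-58199555, plus strand) and Irf1 (chr11:53769869-53769988, plus strand) held the same kinds of match and were not called. Isg15 held overlapping ISRE cores, Igtp a GAS match followed by an ISRE core, and Irf1 a GAS match.
Isg15: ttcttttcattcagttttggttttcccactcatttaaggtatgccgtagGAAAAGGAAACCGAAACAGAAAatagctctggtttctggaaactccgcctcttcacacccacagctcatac
Igtp: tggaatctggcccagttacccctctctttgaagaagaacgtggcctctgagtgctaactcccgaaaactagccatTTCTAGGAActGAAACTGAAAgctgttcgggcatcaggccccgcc
Irf1: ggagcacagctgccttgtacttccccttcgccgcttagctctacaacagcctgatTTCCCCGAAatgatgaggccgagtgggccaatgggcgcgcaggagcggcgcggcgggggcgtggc

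Of the 4 receptor chains 1 passed the test, Ifngr1, the ligand-binding chain of the interferon-γ receptor. Ifngr1 was at 108 and 106 CPM with saline against 120 and 120 CPM with IL-12, which did not overlap. It rose by 11.6% (log2 fold change 0.16, standard error 0.04, edgeR adjusted p = 0.00993), and this call was lost with scaling by total counts, with the DESeq2 Wald test and without control replicate 2. Its partner Ifngr2 had 104 and 102 CPM against 113 and 101 CPM, and these groups overlapped (edgeR adjusted p = 0.442). For the type I receptor, Ifnar1 had a log2 fold change of -0.05 (95% interval -0.13 to 0.03) and Ifnar2 of -0.07 (95% interval -0.23 to 0.10). All 4 chains were clearly expressed, with control levels from 12.7 to 37.6 FPKM.

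Among the regulators, Stat2 and Irf7 fell and Irf8 rose. Stat2 encodes the STAT that is specific to type I and type III signalling. It had 22.2 and 20.98 CPM with saline against 13.3 and 14.9 CPM with IL-12, and it fell by 34.8% (log2 fold change -0.62, standard error 0.10, edgeR adjusted p = 9.31e-05). Irf7, the interferon regulatory factor that amplifies the type I response, was near the low end, with 90 and 89 counts against 53 and 34. In CPM this was 4.75 and 4.72 against 2.68 and 1.88, so that IL-12 replicate 2 was the lower of the pair, and the log2 fold change was -1.04 (standard error 0.22, edgeR adjusted p = 0.0012). Irf7 overlaps Phrf1 on the opposite strand, but only from base 141262706 to base 141262750 of chromosome 7. Phrf1 had 9447 counts over the 4 libraries against 266 for Irf7, and a log2 fold change of 0.07. The value of Irf7 is uncertain because no source states that strand was used in counting. Irf8, a factor best known from myeloid cells, had 5.38 and 6.09 CPM with saline against 8.04 and 7.79 CPM with IL-12 (log2 fold change 0.46, standard error 0.15, edgeR adjusted p = 0.0234). This call was lost in 7 of 14 alternatives.

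Irf1, an early transcription factor of the interferon-γ response, did not pass the test. It had 45.6 and 44.3 CPM with saline against 43.3 and 45.1 CPM with IL-12, with a 95% interval of -0.15 to 0.10 for the log2 fold change. Irf9, the DNA-binding partner of STAT2, had an interval of -0.31 to 0.13. It overlaps Rnf31 on the same strand. Irf2, a competitor of IRF1, had an interval of -0.35 to 0.03. Socs1, the feedback inhibitor of JAK kinases, had 2.74 and 2.54 CPM against 3.34 and 3.54 CPM, without overlap, but did not pass (edgeR adjusted p = 0.223). The same was true of Cd274, the gene of the checkpoint ligand PD-L1, at 7.13 and 7.10 CPM against 6.02 and 5.80 CPM (edgeR adjusted p = 0.199).

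None of the 6 GBP and IRG GTPases, which act on the membranes around intracellular pathogens, passed edgeR's quasi-likelihood test at an adjusted p below 0.05, and none did with limma voom or the DESeq2 Wald test. At an unadjusted p below 0.05 the count was 1, Gbp2. Irgm1 was the most abundant and varied least, with 196 and 196 CPM with saline against 190 and 199 CPM with IL-12, a log2 fold change of -0.01 (95% interval -0.09 to 0.07). Igtp had 28.8 and 28.9 CPM against 27.6 and 30.1 CPM, a log2 fold change of -0.0020 (95% interval -0.16 to 0.16). Gbp2 had 19.9 and 24.003 CPM against 17.5 and 20.2 CPM, which overlapped (log2 fold change -0.22, standard error 0.11, edgeR adjusted p = 0.122), and it was called in 1 of 14 alternatives. Gbp3, Gbp7 and Irgm2 had log2 fold changes of 0.05, -0.17 and -0.13, with adjusted p-values of 0.866, 0.572 and 0.466 from the same edgeR test. The 95% intervals of all 6 lay within 1.5-fold in either direction. Igtp and Irgm2 overlap each other on the same strand, so their reads may have been split.

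The MHC class I genes differed little. B2m had 805 and 832 CPM with saline against 793 and 786 CPM with IL-12, a difference of -3.57% that did not pass (edgeR adjusted p = 0.169). H2-D1 had 654 and 718 CPM against 673 and 636 CPM, which overlapped (edgeR adjusted p = 0.2). H2-K1 had 865 and 897 CPM against 845 and 827 CPM and was called at a difference of -5.12% (edgeR adjusted p = 0.0472), a call that 8 of 14 alternatives did not make. H2-K1 and H2-D1 are near copies of each other and of other class I genes, and reads could have been split between them. Tap1, a chain of the peptide transporter, fell by 9.34% from 103 and 113 CPM to 100 and 95.1 CPM (edgeR adjusted p = 0.0455), and Tapbp, the gene of tapasin, fell by 9.66% from 70.0 and 73.1 CPM to 64.5 and 64.8 CPM (edgeR adjusted p = 0.0373). Each of these was called in 7 of 14 alternatives. Tap1 shares bases with Psmb9 on the opposite strand and Tapbp with Zbtb22 on the same strand. Zbtb22 had 1840 counts over the 4 libraries against 5154 for Tapbp. Its log2 fold change was -0.23 (edgeR adjusted p = 0.0668), beside -0.15 for Tapbp, so the value of Tapbp is uncertain.

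Of the 3 immunoproteasome subunits 1 passed the test. Psmb10 rose by 24.3%, from 19.7 and 22.1 CPM to 24.9 and 27.3 CPM (log2 fold change 0.31, standard error 0.09, edgeR adjusted p = 0.012). The call was lost with the DESeq2 Wald test, without a filter, without control replicate 1 and without IL-12 replicate 2. Psmb8 and Psmb9, neighbours in the MHC region of chromosome 17, had log2 fold changes of -0.07 and -0.06, with adjusted p-values of 0.526 and 0.639 from the same edgeR test. Tap2 had -0.06 (95% interval -0.21 to 0.09). Nlrc5, the transactivator of class I genes, had 90.9 and 91.2 CPM against 97.4 and 101 CPM, without overlap, and missed the threshold (log2 fold change 0.12, edgeR adjusted p = 0.0552).

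Of the class II genes, Ciita, the master transactivator, had 20 and 13 counts with saline against 19 and 28 with IL-12, and it overlaps Dexi on the opposite strand. Its 95% interval of -0.34 to 1.36 reached past 2-fold, so a rise of that size cannot be told from no change at this depth. Cd74, the invariant chain, had 5.86 and 6.84 CPM against 5.46 and 7.24 CPM (95% interval -0.36 to 0.35). Over the 18 genes of the interferon-γ type the median log2 fold change was -0.06, with 3 lower and 1 higher call, or 16.7% and 5.56%, where all genes tested had 14.4% and 16.1%. The intervals of 17 of the 18 lay within 1.5-fold in either direction, as did those of 68.8% of all genes tested.

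Of the 17 type I genes that could be tested 7 fell and 0 rose (41.2% lower, by edgeR's quasi-likelihood test), with a median log2 fold change of -0.21. In 14 of all 19 (73.7%) both IL-12 libraries lay below both control libraries. These 14 include the untested Mx1 and Rsad2, which had at most 1 and 4 counts in a library, so their order is not informative. Over all genes tested the shares were 14.4% lower, 16.1% higher and 31.2% with both libraries below. None rose at an unadjusted p below 0.05, with limma voom or with the DESeq2 Wald test either. The difference between the medians of the classes is a description and was not tested. In the further lists described below the order of the medians was not the same. They were -0.30 for other GBP and IRG genes, -0.24 for other class II, 0.08 for other class I and -0.12 for other type I genes.

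**Figure D3:**
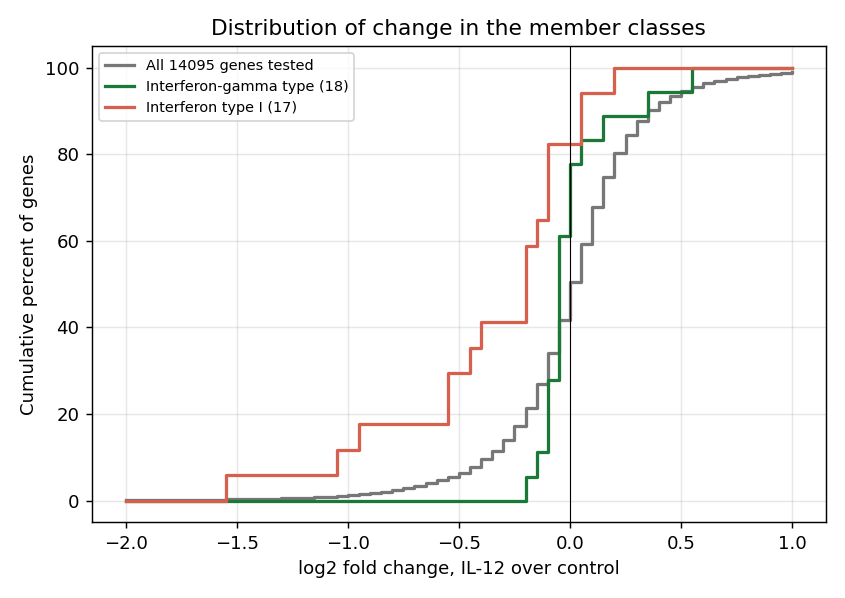
Cumulative percent of genes along the log2 fold change for all 14095 genes tested, the 18 genes of the interferon-γ type and the 17 tested type I genes. Between -1.5 and 0 the type I curve lies to the left of the others, with a median of -0.21 for the type I genes against -0.06 and -0.0022 for the other curves.

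The largest change among the 47 tested genes was that of Ifit3. Ifit proteins bind viral RNA and each other. Ifit3 (ENSMUSG00000074896, chromosome 19 of GRCm38 from 34583531 to 34588731) had 462 and 519 counts with saline against 173 and 153 with IL-12. In CPM it was at 24.4 and 27.5 against 8.75 and 8.46, well apart, with a mean of 25.9 ± 2.20 CPM (SD, n = 2) and 8.60 ± 0.204 CPM (SD, n = 2). It fell by 66.8% (log2 fold change -1.59, standard error 0.11, edgeR adjusted p = 1.97e-09), and 0.213% of all genes tested had a log2 fold change as low or lower. Its promoter, like that of Ifit1, held a pair of ISRE cores.

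Ifit2 (ENSMUSG00000045932, chromosome 19 from 34550694 to 34576419) was the most abundant Ifit gene. It had 110 and 104 CPM with saline against 70.1 and 71.6 CPM with IL-12, and it fell by 33.9% (log2 fold change -0.60, standard error 0.05, edgeR adjusted p = 3.28e-08). Ifit1 (ENSMUSG00000034459, chromosome 19 from 34640871 to 34650009) was rare, with 33 and 36 counts with saline against 18 and 15 with IL-12. Its log2 fold change of -1.06 (SE 0.34, edgeR adjusted p = 0.025) kept its sign in all alternatives but lost its call when any 1 library was left out. The DESeq2 Wald test gave it no adjusted p.

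These genes sit side by side on chromosome 19 with 3 relatives that are not among the 49 genes and were looked up after the values of the others had been seen. Ifit3b had 72 and 69 counts against 27 and 20 (log2 fold change -1.58, standard error 0.26, edgeR adjusted p = 0.000124) beside -1.59 for Ifit3. Ifit1bl1 had 36 and 24 counts against 10 and 15 (log2 fold change -1.25, edgeR adjusted p = 0.0241). It was called in 8 of 14 alternatives, and the losses included the DESeq2 Wald test and the fits without control replicate 1 and without IL-12 replicate 1. Ifit1bl2 had 29 and 19 counts against 11 and 11 and did not pass (log2 fold change -1.12, edgeR adjusted p = 0.053). For all 6 genes both IL-12 libraries lay below both control libraries. Ifit3 and Ifit3b are close copies, as are Ifit1 and its relatives, and how the counting treated reads that match several genes is not given in the sources used here.

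**Figure D4:**
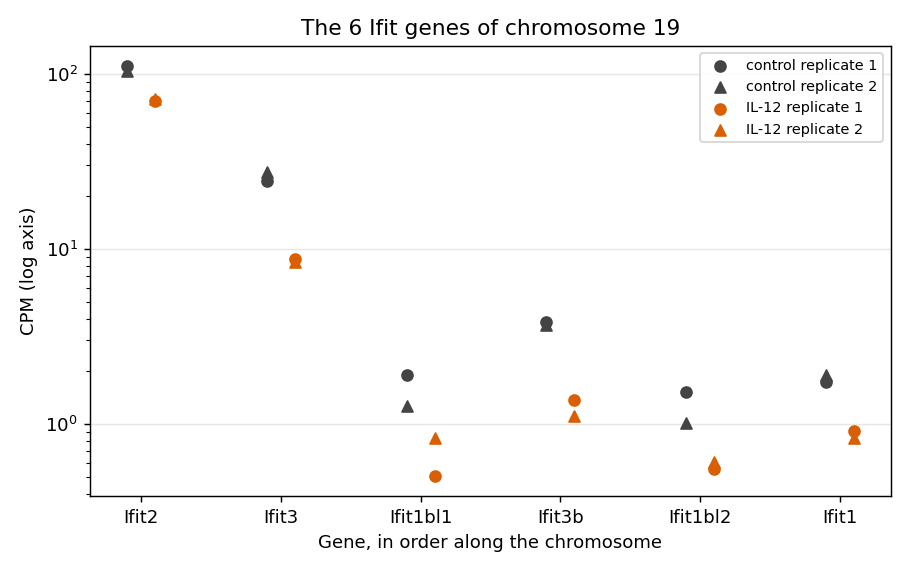
CPM (log axis) of the 6 Ifit genes of chromosome 19 in order along the chromosome, with 1 point per library. The IL-12 libraries (orange) lie below the control libraries (grey) for each gene, from Ifit2 at 104 to 110 CPM in the control libraries down to genes under 2 CPM.

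Other type I genes fell by less. Parp14, an ADP-ribosyltransferase, had 25.4 and 22.7 CPM against 17.2 and 17.96 CPM and fell by 26.9% (log2 fold change -0.45, standard error 0.09, edgeR adjusted p = 0.000938), a call lost only with limma on log2(FPKM + 0.1). Rtp4 had 4.54 and 4.93 CPM against 2.88 and 3.43 CPM (log2 fold change -0.59, standard error 0.20, edgeR adjusted p = 0.0296). Its call was lost with the DESeq2 Wald test, without a filter and when any 1 library was left out. Rtp4, with 298 counts over the 4 libraries, overlaps 2 other genes. Masp1 on the opposite strand had 6021 counts and a log2 fold change of 0.00, and shares bases 23520291 to 23520815 of chromosome 16. Gm45338 on the same strand had 201 counts and a log2 fold change of 0.04. The value of Rtp4 is therefore uncertain. Ddx58, the gene of the RNA sensor RIG-I, fell by 13.3%, from 48.7 and 51.9 CPM to 44.7 and 42.3 CPM (edgeR adjusted p = 0.0167, called in 8 of 14 alternatives). Bst2 fell by 9.64%, from 78.4 and 82.1 CPM to 74.3 and 70.8 CPM (edgeR adjusted p = 0.036, called in 7 of 14).

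The related RNA sensors Ifih1 (MDA5) and Dhx58 (LGP2) did not pass. Ifih1 had 13.3 and 12.1 CPM against 10.9 and 10.7 CPM, without overlap (log2 fold change -0.23, edgeR adjusted p = 0.144), and Dhx58 had a log2 fold change of 0.01 (95% interval -0.53 to 0.55). Isg15, the ubiquitin-like modifier, had 6.55 and 8.11 CPM against 6.07 and 6.63 CPM, which overlapped (log2 fold change -0.21, standard error 0.16, edgeR adjusted p = 0.355). Usp18, which removes it and restrains the type I receptor, had 36 and 43 counts against 28 and 30 (log2 fold change -0.44, standard error 0.29, edgeR adjusted p = 0.284). Oasl2 went in the other direction without passing, with 4.33 and 5.09 CPM against 5.56 and 5.20 CPM (edgeR adjusted p = 0.452). Mx2 had 14 and 27 counts against 13 and 8 (95% interval -1.94 to 0.02). The rest, Ifi35, Xaf1, Trim25 and the RNA editor Adar, had log2 fold changes of -0.18, -0.11, -0.13 and 0.04, with adjusted p-values of 0.15, 0.728, 0.0947 and 0.603 from the same edgeR test.

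**Figure D5:**
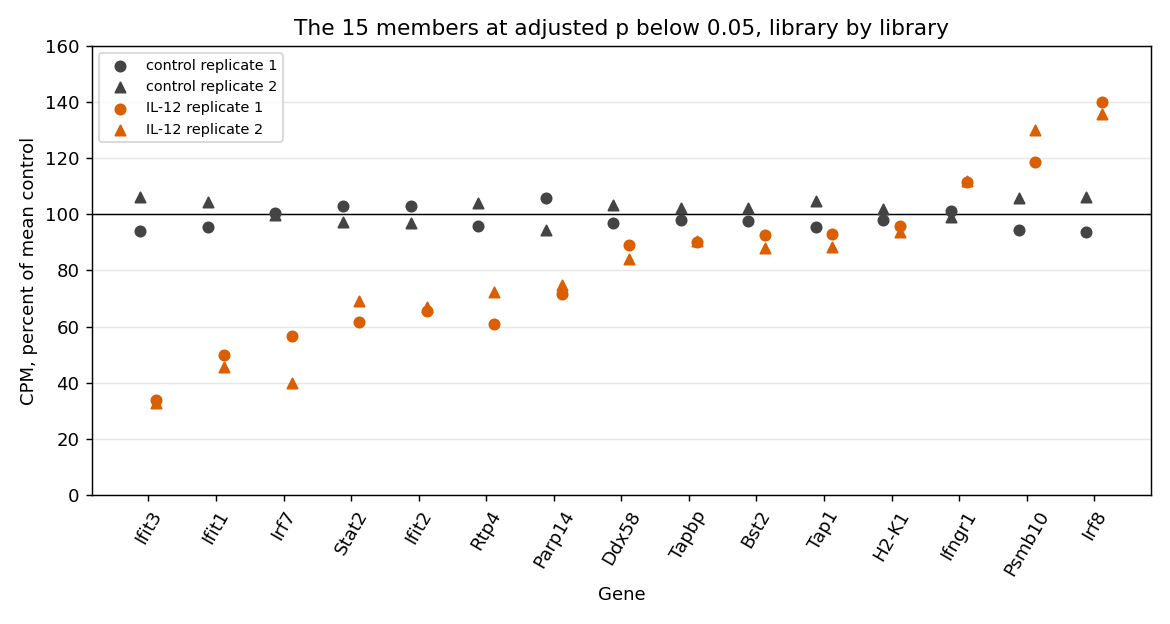
The 15 genes with an adjusted p below 0.05, each library as percent of the mean CPM of the control libraries. Both IL-12 libraries (orange) lie outside the range of the control libraries (grey) for all 15 genes, by a wide gap for Ifit3, Ifit1, Irf7, Stat2 and Ifit2 and a narrow one for H2-K1, Tap1 and Bst2.

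Further genes of the same pathways, from lists written beside the 49 genes, were read beside them. Of 9 other GBP and IRG genes tested 4 fell (44.4%, against 14.4% of all genes tested) and 5 did not pass, and without IL-12 replicate 1 the count was 2. Gbp9 had 2571 and 2470 counts with saline against 1725 and 1707 with IL-12 (log2 fold change -0.56, standard error 0.05, edgeR adjusted p = 6.2e-08). Gbp4 and Gbp8, which lie with it on chromosome 5, had log2 fold changes of -0.57 and -0.66, with adjusted p-values of 1.28e-05 and 0.00304 from the same edgeR test. Gbp4, Gbp8 and Gbp9 overlap one another on the same strand, so their reads may be shared. Iigp1 had -0.61 (edgeR adjusted p = 0.00309), while Ifi47, Tgtp1 and Tgtp2 on chromosome 11 had -0.02, 0.07 and -0.26 and did not pass. Among the GBP genes tested, those of the 49 genes (Gbp2, Gbp3 and Gbp7) lie on chromosome 3 and had no call. Gbp10, on chromosome 5, had none either, with 8 and 4 counts against 13 and 14 (log2 fold change 1.15, edgeR adjusted p = 0.132).

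Of 20 other class I genes tested, which include peptide loading and proteasome activator genes, 7 rose and 2 fell (35% and 10%, against 16.1% and 14.4% of all genes tested). Without control replicate 1 the lower calls numbered 0, and without IL-12 replicate 1 there was 1. The nonclassical heavy chain H2-T23 had 388 and 436 counts with saline against 716 and 625 with IL-12 (log2 fold change 0.70, standard error 0.08, edgeR adjusted p = 2.1e-06). H2-T24 and H2-T22 followed with 0.50 and 0.31. H2-T24 was called in 10 of 14 alternatives. It lost its call with the DESeq2 Wald test, without a filter, without control replicate 2 and without IL-12 replicate 1. H2-Q6 and H2-Q4, which are near copies of other class I genes, fell with log2 fold changes of -0.15 and -0.13. They were called in 13 and 9 of 14 alternatives. Of 7 other class II genes tested 3 fell (42.9%, against 14.4% of all genes tested) and 4 did not pass. Rfx5, a factor that binds class II promoters, had a log2 fold change of -0.55 (SE 0.08, edgeR adjusted p = 2.72e-05). The class II chains H2-Ab1 and H2-Eb1 had -0.41 and -0.24, from control levels of 17.9 ± 0.122 CPM (SD, n = 2) and 71.9 ± 4.68 CPM (SD, n = 2). These 2 chains were called in 13 and 9 of 14 alternatives.

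Of 35 other type I genes tested 8 fell and 2 rose (22.9% and 5.71%, against 14.4% and 16.1% of all genes tested). The lower calls numbered 5 without IL-12 replicate 1 and 4 with the DESeq2 Wald test, and the higher ones 1 without control replicate 1 and 1 without IL-12 replicate 2. The largest falls were in Oas1g, Oas1c and Uba7, with log2 fold changes of -1.97, -0.56 and -0.52. Oas1g had 16 and 16 counts against 8 and 0, and its adjusted p was 0.038 from the same edgeR test. It was called in 8 of 13 alternatives, and the losses included the DESeq2 Wald test and the fit without IL-12 replicate 2. Oas1c was called in 8 of 14 alternatives and Uba7 in all 14. The genes that rose were Ifi204, with a log2 fold change of 0.73 (SE 0.14, edgeR adjusted p = 0.000681), and Ifitm3, with 0.18. Among 13 JAK-STAT genes tested 2 fell and 3 rose (15.4% and 23.1%, against 14.4% and 16.1% of all genes tested). Stat3 and Pias1 fell, with log2 fold changes of -0.42 and -0.29. Socs3, Ptpn2 and Ptpn11 rose, with 0.40, 0.23 and 0.10. The 3 higher calls became 0 with the DESeq2 Wald test and 1 without each of control replicate 2, IL-12 replicate 1 and IL-12 replicate 2. Of the chemokines that interferon-γ induces, Cxcl9 was at 0 in all libraries. Cxcl10 had 153 and 166 counts against 218 and 193 (log2 fold change 0.36, standard error 0.13, edgeR adjusted p = 0.0368). It was called in 7 of 14 alternatives. The call was lost with scaling by total counts, with the DESeq2 Wald test, without a filter and when any 1 library was left out.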

How the data were processed

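The authors deposited raw counts per gene, not normalized, and FPKM values, which are proportional to the counts per gene length within a library (largest relative deviation 3.22e-09). The counts and FPKM were made by a sequencing company, and the submitters' processing notes name HISAT2, StringTie and the build mm9. The deposited gene coordinates equal GENCODE M21 (GRCm38) for 98.3% of shared genes and for 45 of the 49 genes, so GRCm38 is given. Counting program, strand and multi-mapping rules are not given in the sources used here.

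Counts were filtered with edgeR's filterByExpr (minimum 10, total 15), scaled by TMM and fitted with edgeR's quasi-likelihood model, without a block. P-values were adjusted after Benjamini and Hochberg across 14095 genes (R 4.3.3, edgeR 4.0.16, limma 3.58.1, DESeq2 1.42.0, Python 3.11.15, matplotlib 3.10.9). Standard errors are the log2 fold change over the square root of F. With 2 libraries a group, the smallest p of an exact permutation test is 0.333. Replicate libraries were further apart than sampling noise (chi-square per degree of freedom 2.13 and 2.41). The test was also run on simulated counts whose spread was taken from these same 4 libraries, so that check cannot support the calls. Alternatives were other scalings, DESeq2, limma voom, limma on FPKM, other filters, the replicate block, a stricter threshold and each library left out. The members and lists were chosen with earlier results of these data known. All members were named. Of other lists, the genes called with the largest changes (up to 3 each way) and Ifng, Il12rb1, Il12rb2, Stat4, Cxcl9 and Cxcl10 were named, and the remaining genes named (the interferon ligands, Tbx21, Il18r1, the markers, GBP and IRG genes beyond those 3, the Ifit relatives and overlapping genes) were chosen after their values were seen. Some genes of these lists are not reported here.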

Additional observations from a re-analysis of the deposited data

How the results depend on the processing

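All 15 called genes kept their direction in all 14 alternatives, while 11 of the 32 tested genes without a call changed sign in at least 1. In the further lists, which were recomputed after seeing the data, the lower calls ranged over the alternatives from 2 to 4 (GBP and IRG), 0 to 3 (class I), 2 to 4 (class II) and 4 to 11 (type I), and the higher ones of class I from 5 to 8. The 12 lower calls became 5 with the DESeq2 Wald test, 6 without a filter, 7 and 6 with limma on log2(FPKM + 1) and log2(FPKM + 0.1), 5 at an adjusted p below 0.01, and 5 to 14 with each library left out. The 3 higher calls became 0 with the DESeq2 Wald test, 1 without a filter, 1 at an adjusted p below 0.01, and 1 to 2 with each library left out. The 3 genes past 2-fold became 1 and 1 with limma on FPKM, where the pseudocount shrinks low genes, and 1 to 3 with each library left out. With scaling by total counts the median log2 fold change was -0.25 for the type I genes and -0.10 for the interferon-γ type, against -0.04 for all genes, and 2590 genes were lower and 1765 higher, against 2030 and 2267 with TMM. With each library left out the medians were -0.251 to -0.220 and -0.0925 to -0.0362. A lone library is then assumed to vary like the other group. The calls over all genes tested also became fewer in several settings. The lower ones became 1204 with the DESeq2 Wald test, 1456 without a filter, and 1280 and 1277 with limma on FPKM. With any 1 library left out fewer of all genes tested were called as well. Apart from the constructions named, the cause of these shifts was not tested. The groups share the replicate numbers 1 and 2 from the labels only. Same-numbered libraries deviated with a correlation of -0.027 across genes, and with the replicate block 11 genes were lower, 3 higher and 3 past 2-fold, with H2-K1 losing its call. Genes under about 50 counts a library, such as Ifit1, Mx2 and Ciita, had intervals too wide to show small changes.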
